A study of Mus musculus with 28 samples.

Results

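Untreated liver of hCAR/hPXR mice was compared with untreated liver of CD-1 mice, to see how the humanised strain differs from an ordinary mouse before any drug is given. The comparison takes the 11 arrays of control animals fed 0 ppm phenobarbital for 7 days, 7 from hCAR/hPXR and 4 from CD-1 mice, of 28 arrays in all. Every array holds total liver RNA of 1 male mouse, labelled with the dye Cy3 and hybridised alone. The hCAR/hPXR mice carry the human forms of the constitutive androstane receptor (CAR) and the pregnane X receptor (PXR), and CD-1 is an outbred stock with the mouse receptors. The labels do not state how the human genes were introduced, the background strain of the hCAR/hPXR mice, or the animals' ages. The other arrays come from CD-1 mice fed 1500 ppm phenobarbital (n = 4), hCAR/hPXR mice fed 1000 ppm (n = 7), and C3H/HeNCrlCrlj mice fed 0 or 500 ppm for 27 weeks (n = 3 each). All C3H mice, controls included, had first received 90 mg/kg diethylnitrosamine, a liver carcinogen, in 1 intraperitoneal injection. The labels do not say if C3H tissue came from tumours or from beside them. The C3H controls appear here only as a further set of levels, with no test, because strain, duration and carcinogen all differ.

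CAR (gene Nr1i3) and PXR (gene Nr1i2) are nuclear receptors of hepatocytes that sense drugs, bile acids and other foreign or internal compounds. Each binds DNA as a pair with the retinoid X receptor RXRA and switches on cytochrome P450 genes, conjugating enzymes and transporters. Cyp2b10 and Cyp2c55 are classic mouse targets of CAR, and Cyp3a11 of PXR. Human and mouse forms of these receptors respond to partly different ligands, which is the reason for making humanised mice.

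The promoters of both mouse receptor genes, whose human forms define the hCAR/hPXR strain, and of both CAR targets named above are shown for reference. They are RefSeq sequences of build GRCm38.p6, 250 bases before to 50 bases after the annotated start, on the coding strand. The windows are chr1:171213720-171214019 on the forward strand for Nr1i3, chr16:38294775-38295074 on the reverse strand for Nr1i2, chr7:25897408-25897707 on the forward strand for Cyp2b10 and chr19:39006769-39007068 on the forward strand for Cyp2c55. Capitals mark any match to AGGTCA or AGTTCA, the core letters of nuclear receptor sites, or to TATAAA, on either strand.
Nr1i3: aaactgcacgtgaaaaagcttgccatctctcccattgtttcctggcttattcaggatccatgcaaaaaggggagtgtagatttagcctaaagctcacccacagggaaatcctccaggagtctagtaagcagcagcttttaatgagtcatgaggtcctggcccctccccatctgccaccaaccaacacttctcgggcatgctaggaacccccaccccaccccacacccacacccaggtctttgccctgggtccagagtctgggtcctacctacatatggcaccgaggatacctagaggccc
Nr1i2: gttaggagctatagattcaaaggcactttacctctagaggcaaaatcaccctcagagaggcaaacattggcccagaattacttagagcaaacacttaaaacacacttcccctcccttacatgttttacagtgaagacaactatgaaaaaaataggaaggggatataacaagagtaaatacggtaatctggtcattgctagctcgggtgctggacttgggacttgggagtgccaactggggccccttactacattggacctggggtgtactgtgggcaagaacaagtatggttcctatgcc
Cyp2b10: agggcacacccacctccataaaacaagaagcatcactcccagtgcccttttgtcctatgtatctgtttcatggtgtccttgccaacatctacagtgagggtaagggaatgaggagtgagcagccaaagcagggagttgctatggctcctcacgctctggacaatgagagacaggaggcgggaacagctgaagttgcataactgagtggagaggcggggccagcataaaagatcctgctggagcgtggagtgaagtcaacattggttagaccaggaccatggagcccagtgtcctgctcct
Cyp2c55: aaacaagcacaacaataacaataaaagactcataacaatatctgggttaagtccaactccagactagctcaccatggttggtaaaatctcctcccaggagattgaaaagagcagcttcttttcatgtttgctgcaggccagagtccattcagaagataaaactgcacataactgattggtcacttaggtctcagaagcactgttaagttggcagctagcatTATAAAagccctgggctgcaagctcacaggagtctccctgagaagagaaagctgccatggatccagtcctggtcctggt
TATAAA in the Cyp2c55 window was the only match among the 4. Of 32851 promoters of 27025 genes, 16.3% held AGGTCA, 14% AGTTCA and 13.6% TATAAA. The arrays carry probes for mouse transcripts, and whether any of them also reads the human receptor transcripts was not tested.

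Levels below are log2 signal minus the 75th percentile of the array, differences are hCAR/hPXR minus CD-1 in log2 units, and p-values are from limma, adjusted by Benjamini and Hochberg over all genes tested. A gene was tested where it was well above background on every array of at least 1 strain, and a gene below background on all arrays of 1 strain has only a lower bound on its fold. Strain cannot be told apart from array slide: the 7 hCAR/hPXR controls lay on 1 slide and the 4 CD-1 controls on another. The CD-1 arrays were dimmer. The 99th percentile of signal was 3932 to 5062 units on CD-1 arrays, 28950 to 43790 on hCAR/hPXR arrays and 21120 to 23090 on C3H arrays, with an exact permutation p of 0.00303 for CD-1 against hCAR/hPXR (two-sided), the smallest that 330 splits allow. The interquartile range of log2 signal was 2.75 to 3.49 and 4.72 to 5.21 in the same order. Replicate spots of a probe varied by 11.04% to 13.1% on CD-1 arrays and by 4.73% to 11.6% on hCAR/hPXR arrays. Of 8 such measures, 6 differed between the strains after adjustment over the 8. The share of probes well above background, 46.2% to 70.5% on CD-1 arrays and 46.6% to 58.6% on hCAR/hPXR arrays, did not pass (exact p 0.133), nor did the slope of the spike-in controls (exact p 0.418). Spearman correlation over the tested genes, 1 probe each, was 0.897 to 0.964 within CD-1 and 0.973 to 0.993 within hCAR/hPXR controls. Between strains it was 0.517 to 0.646 for CD-1 with hCAR/hPXR, 0.937 to 0.954 for hCAR/hPXR with C3H, and 0.548 to 0.641 for CD-1 with C3H. By these values the CD-1 arrays stood apart from both other strains. The set includes genes chosen because they were above background in only 1 of CD-1 and hCAR/hPXR mice. The part of slide and brightness in the differences below was not tested.

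Mouse Nr1i3, the gene of CAR, was far lower on the hCAR/hPXR arrays. Its first probe read 1.73, 1.34, 1.44 and 1.39 on the 4 CD-1 arrays and -1.15 (lowest), -1.0 (median) and -0.89 (highest) on the 7 hCAR/hPXR arrays. The strains did not overlap, and the difference was -2.50 ± 0.13 (SE; adjusted p = 9.62e-10), a 5.64-fold lower signal. This probe stayed well above background on 7 of 7 hCAR/hPXR arrays. Its second probe read 3.11, 1.91, 2.49 and 2.25 on CD-1 arrays and -6.22, -5.52 and -4.63 (lowest, median, highest) on hCAR/hPXR arrays. None of those 7 was well above background, so CD-1 was at least 69.6-fold higher by this probe. C3H controls read 3.23 ± 0.18 and 4.80 ± 0.22 (SD, n = 3) by the respective probes, above CD-1 in both cases.

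Nr1i2, the gene of PXR, read 0.92, 0.64, 1.31 and 0.67 on CD-1 arrays and -5.40, -4.54 and -3.38 (lowest, median, highest) on hCAR/hPXR arrays. Only 1 of 7 hCAR/hPXR arrays was well above background, so that the difference of -5.44 ± 0.35 is set against values mostly at background. CD-1 was at least 22.9-fold higher by the bound. Nr1i2 entered the test through the CD-1 arrays, so no p-value is given. C3H controls read 2.98 ± 0.11. Both receptors were called lower under the 75th percentile, quantile and cyclic loess scalings.

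RXRA is the shared partner of both receptors. Its gene Rxra read 0.27, -0.31, 0.11 and -0.12 on CD-1 arrays and -0.14, -0.06 and 0.19 on hCAR/hPXR arrays, and the strains overlapped. Its difference was -0.02 ± 0.14 (adjusted p = 0.872), and its sign turned under quantile scaling, 0.05, while cyclic loess called it lower, -0.58 (adjusted p = 1.36e-04). Hnf4a, a master regulator of hepatocyte genes, was higher by 2.82 ± 0.16, Cebpb, a liver transcription factor of the acute phase response, by 4.37 and Ncoa2, a nuclear receptor coactivator, by 3.07. Esr1, the oestrogen receptor alpha gene, was below background on all CD-1 arrays and at least 9.48-fold higher in hCAR/hPXR mice, although the mean over its probes gave 0.34 with adjusted p = 0.289. Vdr, the vitamin D receptor gene, was lower by 3.71 in hCAR/hPXR mice, where 3 of 7 arrays were well above background, so no p-value is given. Of the 30 receptors and partners listed, 30 were tested, 23 were higher and 4 lower, with a median difference of 1.62. Under all 3 scalings 12 were higher (40%) and 4 lower (13.3%), while cyclic loess by itself called 12 higher and 13 lower. Among all tested genes with a symbol 63.9% were higher and 25.3% lower, or 45.4% and 18.7% under all 3 scalings.

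**Figure D1:**
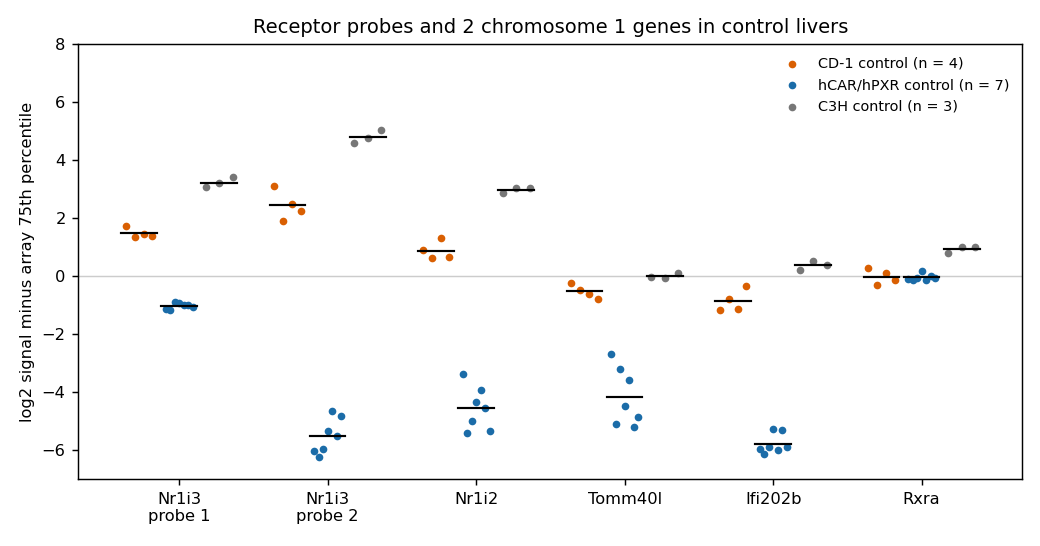
Level of the mouse receptor genes Nr1i3 and Nr1i2 and of Tomm40l, Ifi202b and Rxra on each control array. The vertical axis is log2 signal minus the array's 75th percentile. Dots are arrays of CD-1 (n = 4), hCAR/hPXR (n = 7) and C3H (n = 3) mice, and bars are group means. Both Nr1i3 probes, Nr1i2, Tomm40l and Ifi202b lie lower on all 7 hCAR/hPXR arrays than on any other control array, and Rxra overlaps between hCAR/hPXR and CD-1.

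The gene next to Nr1i3 on chromosome 1 was also low. Tomm40l, whose product belongs to the protein import machinery of mitochondria, overlaps or abuts Nr1i3 in the annotation. It read -0.23, -0.46, -0.62 and -0.79 on CD-1 arrays and -5.19, -4.47 and -2.68 on hCAR/hPXR arrays, of which 2 were well above background. The difference was -3.62 ± 0.45, and C3H controls averaged 0.006. Tomm40l entered the test through the CD-1 arrays, so no p-value is given. On the other side of Nr1i3, Pcp4l1 differed by 0.46 (adjusted p = 0.226). Sdhc, a subunit of succinate dehydrogenase, was higher by 3.00. Near Nr1i2 on chromosome 16, Gsk3b, a signalling kinase gene, was higher by 0.98 and Pla1a, a phospholipase gene, by 4.88. Tomm40l was the 1 gene lower in hCAR/hPXR mice among these 5 neighbours.

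Ifi202b, an interferon-inducible gene on chromosome 1 known to vary between mouse strains, read -1.18, -0.78, -1.11 and -0.34 on CD-1 arrays and -6.14, -5.89 and -5.27 on hCAR/hPXR arrays. It was below background on all 7 hCAR/hPXR arrays and at least 7.09-fold lower there, or at least 2.83-fold under quantile scaling. It was tested only because the CD-1 arrays read it above background, so no p-value is given. C3H controls averaged 0.38. Its neighbours Ifi204 and Mndal, of the same gene family, were higher in hCAR/hPXR mice by 2.85 and 1.73, and Ifi211 was above background on 7 of 7 hCAR/hPXR and 0 of 4 CD-1 arrays.

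A combined rule asked which probes lay at least 8-fold (3 log2 units) from both other control groups in hCAR/hPXR mice, with no overlap. Lower probes also had to be above background on all CD-1 and all C3H controls, and higher probes on all hCAR/hPXR controls only. Of 55681 probes, 12 were lower by it and 64 higher, counts that are not comparable because these conditions differ. The lower probes with a symbol were 8, for Nr1i3, Nr1i2, Ifi202b, Tomm40l, Nuggc, Pde6h, Cdkn2a and Grb10. Nuggc, a nuclear GTPase gene, averaged -4.98 in hCAR/hPXR mice, below background on all 7 arrays, -1.40 in CD-1 and 2.17 in C3H controls. Cdkn2a, a cell cycle inhibitor and tumour suppressor gene, was lower than in CD-1 by 3.24, and Grb10, an imprinted gene for an inhibitor of insulin signalling, by 3.03, each above background on 4 of 7 hCAR/hPXR arrays. Among the higher probes was that of Hsd17b13, a lipid droplet enzyme gene, with averages of 5.23, -0.19 and 1.40 in the same order. Its CD-1 level was above background on 3 of 4 arrays, and its difference of 5.41 was 4.63 without CD-1 animal 1 and 6.13 without CD-1 animal 3.

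Over the whole transcriptome nearly every tested gene differed. Of 22660 genes and transcripts tested, 20041 were called (88.4%), 11558 higher in hCAR/hPXR mice (51.0%) and 8483 lower (37.4%), and 17120 of the calls were at least 2-fold. The strains did not overlap in 17911 (79.0%). Genes with a symbol leaned upward: of 13561, 12090 were called (89.2%), 8662 higher (63.9%) and 3428 lower (25.3%), with a median difference of 1.30. Transcripts without a symbol leaned downward, with 2896 of 9099 higher (31.8%), 5055 lower (55.6%) and a median of -0.93. Since a count of calls at this level says little about any 1 gene, each list below stands beside these shares. Entry through 1 strain, where a gene was above background, favoured a difference in that direction without fixing it. The 2981 symbols above background on all hCAR/hPXR arrays only had a median of 1.93, with 2294 called higher and 192 lower. The 1445 above background on all CD-1 arrays only had a median of -3.18, with 63 called higher and 1340 lower. List counts cover tested genes only and are descriptions.

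The lean depended on the scaling. The median over all genes tested was 0.57 under the 75th percentile, 0.36 under quantile and -0.07 under cyclic loess scaling, and for genes with a symbol 1.30, 0.93 and 0.35. Quantile scaling called 18898 (83.4%) and cyclic loess 18305 (80.8%). By cyclic loess 8985 were higher (39.7%) and 9320 lower (41.1%), so that 49.1% of calls were upward against 57.7% in the main scaling. Centring each array on its median gave 15522 higher and 4105 lower (79.1% upward), and testing all genes without a filter gave 11778 and 20576 (36.4% upward). The same direction was called under the 75th percentile, quantile and cyclic loess scalings for 14367 genes (63.4%), of which 7970 were higher (35.2%) and 6397 lower (28.2%). Among genes with a symbol these were 6161 (45.4%) and 2537 (18.7%). The difference also changed with brightness. Over the 9135 genes with a symbol that were well above background on all 11 arrays, split by mean level into 5 bins of 1827, the median difference was -0.95 in the dimmest and then 1.14, 1.94, 2.01 and 1.93. Quantile scaling gave -0.19, 1.21, 1.33, 0.75 and 0.55, and cyclic loess -0.48, 0.22, 0.49, 0.30 and 0.12. Differences of a bright gene are therefore to be read against a shift of about that size.

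**Figure D2:**
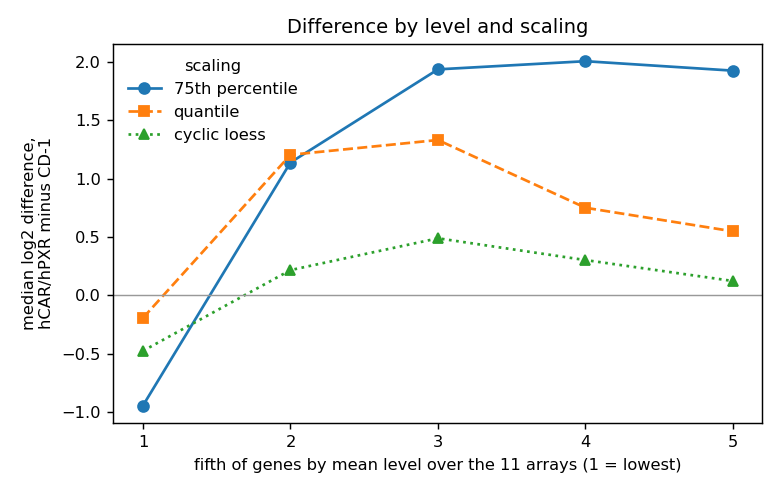
Median difference, hCAR/hPXR minus CD-1 in log2 units, over 5 equal bins of the 9135 genes with a symbol and well above background on all 11 arrays, ordered by mean level; each line is 1 of the 3 scalings. Under the 75th percentile the medians run from -0.95 in the dimmest bin to 2.01 in the second brightest, and under cyclic loess they stay between -0.48 and 0.49.

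Phenobarbital-inducible P450 genes were higher in untreated hCAR/hPXR mice. Cyp2b10 read 1.91, -0.21, 1.59 and 2.39 on CD-1 arrays and 4.79, 5.25 and 6.38 (lowest, median, highest) on hCAR/hPXR arrays. The strains did not overlap, and the difference was 4.01 ± 0.43 (adjusted p = 1.04e-06; 2.97 by quantile and 2.22 by cyclic loess). C3H controls averaged 4.41, between both strains. Cyp2c55 was below background on all CD-1 arrays, at -3.80, -4.43, -4.34 and -2.66, and read 1.39, 2.62 and 2.87 on hCAR/hPXR arrays. It was at least 36.2-fold higher. It was tested only because the hCAR/hPXR arrays read it above background, so no p-value is given. Cyp2a4, a steroid 15-alpha-hydroxylase that is female-biased in mouse liver, read 1.97, 3.22, 3.37 and 4.19 against 7.75, 8.18 and 8.53, a difference of 4.99 ± 0.31. Cyp2g1 was at least 10.1-fold higher. All 6 tested genes of the Cyp2a and Cyp2b list were higher, median 2.55, and 4 were so under all 3 scalings. Of 11 tested Cyp2c genes 10 were higher and 1 lower, median 2.41, and 7 were higher under all 3 scalings. Cyp2c37, Cyp2c39 and Cyp2c50, enzymes of arachidonic acid and drug oxidation, were higher by 3.84, 4.18 and 3.55. Cyp2c29, another phenobarbital-responsive gene, was higher by 1.94, and by cyclic loess it was not called, 0.13.

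Cyp3a11, the main mouse target of PXR, was higher by less than the median gene with a symbol. It read 8.95, 7.81, 8.75 and 8.31 on CD-1 arrays and 9.25, 9.43 and 9.70 on hCAR/hPXR arrays. The strains did not overlap, and the difference was 1.02 ± 0.20 (adjusted p = 2.61e-04), but cyclic loess turned it to -0.64. Cyp3a57, a neighbour in the same family, read 2.24, 2.01, 2.28 and 2.11 against 6.28, 6.55 and 6.80, a difference of 4.41 ± 0.13 (adjusted p = 8.93e-11). Cyp3a13, Cyp3a16 and Cyp3a41b were higher by 4.39, 3.83 and 2.96. Whether a probe reads more than 1 gene of this family was not tested. All 8 tested Cyp3a genes were higher, median 2.74, and 6 under all 3 scalings.

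P450 genes of other families were mixed. Cyp1a2, a target of the aryl hydrocarbon receptor, read 3.51, 2.64, 3.04 and 2.67 on CD-1 arrays and 2.71, 3.81 and 4.04 on hCAR/hPXR arrays. These values overlapped, and the call of 0.70 ± 0.25 (adjusted p = 0.0183) turned to -0.74 by quantile and -1.06 by cyclic loess scaling. It was also lost without CD-1 animal 2 (0.59) or CD-1 animal 4 (0.60). Cyp2e1, the ethanol-oxidising P450, was higher by 1.90, and cyclic loess did not call it (0.23). Cyp7a1, whose enzyme limits the rate of bile acid synthesis, read -0.03, -1.49, -1.28 and -0.81 against 2.19, 2.76 and 3.13, a difference of 3.62 ± 0.29 (adjusted p = 4.95e-08). Cyp51, an enzyme of cholesterol synthesis, was below background on all CD-1 arrays and at least 22.1-fold higher. Cyp17a1, a steroid hydroxylase, went the other way: it read 8.19, 6.63, 7.17 and 6.68 on CD-1 arrays, 4.06, 4.60 and 5.07 on hCAR/hPXR arrays, and averaged 5.09 in C3H controls, a difference of -2.62 between hCAR/hPXR and CD-1 mice. Cyp4a14, a fatty acid hydroxylase under PPARA, read 4.35, -3.73, 4.22 and 3.53 against 5.09, 5.31 and 6.77, with a difference of 3.46 ± 1.21. Only 3 of 4 CD-1 arrays were above background, so it entered the test through the hCAR/hPXR arrays and no p-value is given. Without CD-1 animal 2, the low one, the difference was 1.52, and without CD-1 animal 1 or 3 it was 4.21 or 4.17. Quantile scaling of all arrays did not call Cyp4a14. Of 31 tested genes in this list 27 were higher and 2 lower, median 1.5, and 12 were higher under all 3 scalings.

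The genes that feed P450 enzymes with electrons and haem were also higher. Por, the reductase that passes electrons to all microsomal P450 enzymes, read 2.87, 1.89, 2.56 and 2.25 on CD-1 arrays and 6.23, 6.50 and 6.84 on hCAR/hPXR arrays, a difference of 4.10 ± 0.19 (adjusted p = 6.19e-10). Alas1, which starts haem synthesis, read 5.12, 4.30, 5.36 and 3.52 against 7.34, 7.55 and 8.17, a difference of 3.16 ± 0.32. Neither gene overlapped between strains, and C3H controls averaged 5.35 for Por and 6.79 for Alas1. Pgrmc1, a haem-binding partner of P450 enzymes, was higher by 3.1. Of 16 tested genes 15 were higher and 0 lower, median 2.04, and 9 were higher under all 3 scalings.

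**Figure D3:**
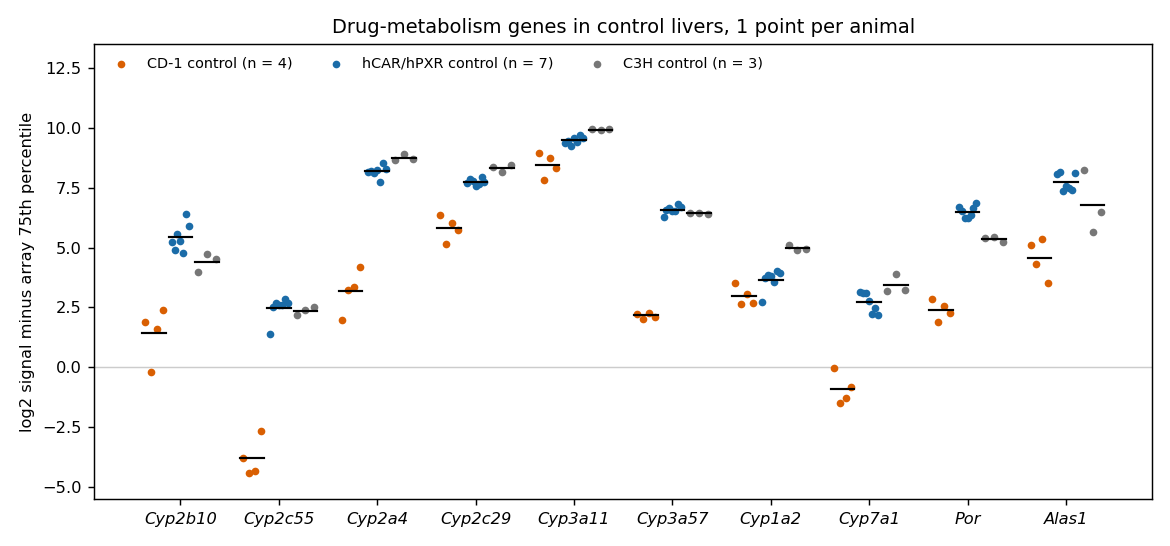
Levels of 8 P450 genes, Por and Alas1 on each control array, as log2 signal minus the array's 75th percentile; dots are arrays of CD-1 (n = 4), hCAR/hPXR (n = 7) and C3H (n = 3) mice and bars are group means. Cyp2b10, Cyp2c55, Cyp2a4, Cyp3a57, Cyp7a1, Por and Alas1 lie higher on every hCAR/hPXR array than on any CD-1 array, and Cyp1a2 overlaps.

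Conjugating enzymes and transporters, which make drugs water-soluble and move them into bile, followed the same lean. Of 21 tested glutathione transferases 18 were higher and 0 lower, median 2.06, whereas cyclic loess called 10 higher and 7 lower (median 0.27). Mgst1, the microsomal form, was higher by 3.66 and Gstm5 by 3.94. Of 15 glucuronosyltransferase and UDP-glucuronate genes 14 were higher and 1 lower, median 2.84, and 12 were higher under all 3 scalings. Ugdh, which makes UDP-glucuronate, was higher by 4.21 and Ugt2b36 by 3.47, while Ugt3a2 was higher by 3.70 on 1 probe and differed by -1.66 on another. All 9 tested sulfotransferase genes were higher, median 1.63, 5 of them under all 3 scalings, among them Sult2a7 by 4.17 (3 of 4 CD-1 arrays above background). Of 43 carboxylesterases, hydrolases, reductases and dehydrogenases 38 were higher and 2 lower, median 2.10, and 23 were higher under all 3 scalings, with Ces1c, a plasma carboxylesterase, higher by 3.34 and Aldh2, which clears acetaldehyde, by 3.08. Among 24 hepatobiliary transporters 19 were higher and 3 lower, median 1.48, and 11 were higher under all 3 scalings. The export pumps Abcc2 and Abcb11 were higher by 2.59 and 2.65. Slco1a1, a male-biased uptake carrier, read 3.72, 2.78, 3.37 and 2.98 on CD-1 arrays and 2.03, 3.71 and 4.10 on hCAR/hPXR arrays. It overlapped and was not called, 0.32 ± 0.34 (adjusted p = 0.386), whereas quantile and cyclic loess scaling called it lower, -1.13 and -1.44. Without hCAR/hPXR animal 1 it was called higher by 0.57.

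Genes of the antioxidant response driven by NRF2 were higher in 18 of 21, with 0 lower and a median of 2.04, whereas cyclic loess called 12 higher and 7 lower (median 0.60). Gsr, glutathione reductase, was higher by 3.95, Prdx1, a peroxidase, by 4.31 and Nfe2l2, the gene of NRF2 itself, by 3.44. The metabolic lists leaned the same way. All 27 tested genes of the urea cycle and amino acid breakdown were higher, median 2.44, 16 of them under all 3 scalings; Fah, of tyrosine breakdown, was higher by 3.93 and Sds, serine dehydratase, by 3.78. Fatty acid oxidation genes were higher in 28 of 31 and lower in 1, median 2.12 (17 higher under all 3 scalings), with Acadl, a mitochondrial dehydrogenase, higher by 4.42 and Cpt1a, the gate to mitochondrial oxidation, by 3.65. Gluconeogenesis and glycolysis genes were higher in 21 of 23 and lower in 1, median 2.36 (14 under all 3), with Pfkfb1, a regulator of both paths, higher by 3.85. Of 25 cholesterol genes 23 were higher and 1 lower, median 1.95 (13 higher under all 3). Of 18 bile acid genes 15 were higher and 1 lower, median 1.85 (7 higher under all 3), and Klb, the coreceptor of FGF15, was higher by 2.68.

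Exceptions in lipid and sugar metabolism, chosen after their values were seen, included the following. Pklr, liver pyruvate kinase, read 2.91, 2.63, 2.70 and 3.00 on CD-1 arrays and -0.23, 0.03 and 0.84 on hCAR/hPXR arrays. It was lower by 2.71 ± 0.20 (adjusted p = 2.18e-08), with no overlap. Insig1, which holds back cholesterol synthesis, read 4.92, 4.03, 4.53 and 3.78 against 0.65, 2.31 and 2.88, a difference of -2.18 ± 0.35 that median centring did not call (-0.53). Of 28 fatty acid synthesis genes 24 were higher and 4 lower, median 2.19 (16 and 4 under all 3 scalings). Cd36, a fatty acid uptake receptor above background on 1 of 4 CD-1 arrays, was higher by 3.8 and Plin2, a coat protein of lipid droplets, by 3.17. Vnn1, a pantetheinase under PPARA, was higher by 3.23 with 3 of 4 CD-1 arrays above background, and C3H controls averaged -3.15 for it, with 1 of 3 arrays well above background.

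Genes of hepatocytes around the central vein, where most P450 enzymes are made, included some of the largest differences. Oat, ornithine aminotransferase, read 0.01, -0.28, 0.38 and 0.17 on CD-1 arrays and 6.48, 6.75 and 7.05 on hCAR/hPXR arrays. Its difference of 6.66 ± 0.16 (adjusted p = 5.45e-11) was the largest upward one by the rule for named genes, and C3H controls averaged 5.40. Glul, glutamine synthetase, read 3.68, 2.08, 3.30 and 2.75 against 6.36, 6.59 and 6.96, a difference of 3.68 (adjusted p = 1.15e-08). Neither overlapped between strains. Slc1a4, an amino acid carrier, was higher by 3.93. Cldn2, a tight junction gene, was higher by 2.98 on 1 probe and differed by -2.57 on another, and Axin2, a Wnt feedback gene, was read by 1 probe above background on 4 of 4 CD-1 and 1 of 7 hCAR/hPXR arrays and by another on 0 of 4 and 7 of 7. Of 22 tested genes 18 were higher and 4 lower, median 1.90, with 12 and 2 under all 3 scalings.

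Growth hormone shapes the sex bias of mouse liver, and all animals here were male. Male-biased genes were higher in 19 of 21 with 0 lower, median 2.04, but in 7 of 21 under all 3 scalings. Female-biased genes were higher in 13 of 17 and lower in 3, with a median of 2.21 that was 2.83 by quantile and 2.0 by cyclic loess scaling, and 13 were higher under all 3. Hsd17b2, which inactivates sex steroids, was higher by 2.98. Prom1, a female-biased and bile duct gene, was at least 2.21-fold higher, although the mean over its probes gave -0.82, and Sult1e1, oestrogen sulfotransferase, was at least 1.2-fold higher, while normexp background correction turned its difference to -0.37. Acot3, an acyl-CoA thioesterase, was lower by 1.70, and median centring did not call it (-0.047). Stat5b, which carries the growth hormone signal, was higher by 2.68, and its list had 12 higher and 2 lower of 18 (median 2.08), or 8 and 2 under all 3 scalings. The major urinary proteins, near-identical secreted pheromone carriers whose probes may share signal, were split under the 75th percentile, with 6 higher and 6 lower of 12 and a median of 0.14, while cyclic loess called 2 higher and 7 lower (median -1.51). Mup6 read 1.70, 1.17, 1.97 and 1.26 against 5.95, 6.72 and 7.11, a difference of 5.09 ± 0.23. Mup18 read 11.46, 10.76, 11.18 and 10.61 on CD-1 arrays and was lower by 1.65, from 6 of 7 hCAR/hPXR arrays because 1 spot was marked as an outlier; median centring turned this to 0.043. Mup20, whose product attracts females, was higher by 2.27, with a second probe at -0.24 that was not called.

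Most antigen presentation genes were higher in hCAR/hPXR mice. H2-K1, a classical MHC class I gene, read 5.26, 4.60, 4.61 and 4.74 on CD-1 arrays and 8.77, 8.82 and 9.08 on hCAR/hPXR arrays, a difference of 4.07. H2-D1 was higher by 3.26. H2-Q1, a non-classical gene, was below background on all CD-1 arrays and at least 13.4-fold higher. H2-Eb1, of MHC class II, read -3.47, -2.49, 0.74 and 0.54 against 3.60, 4.31 and 4.49, a difference of 5.42 with 2 of 4 CD-1 arrays above background. It was 4.65 without CD-1 animal 1 and 6.05 without CD-1 animal 3. Ciita, the master switch of class II, was lower by 2.22. Of 31 tested genes 25 were higher and 3 lower, median 2.57, and 21 were higher under all 3 scalings. These genes are highly polymorphic, and whether a probe matches the alleles of each strain equally was not tested.

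Interferon-stimulated genes were higher in 28 of 32 and lower in 2, median 2.47, and 23 were higher under all 3 scalings. Irf1 and Irf9, transcription factors of the interferon response, were higher by 3.21 and 3.52. Cxcl10, an interferon-induced chemokine, was below background on all CD-1 arrays and at least 12.2-fold higher. Among 19 tested genes known to vary in copy number or allele between strains, 12 were higher and 3 lower, median 1.37, whereas cyclic loess called 8 higher and 8 lower (median -0.19). Klra2, a natural killer receptor gene, was at least 3.21-fold higher and was below background on all C3H controls. Trim12a, a retrovirus restriction gene, read -3.81, -0.80, -0.94 and -1.21 on CD-1 arrays, 1.58, 1.89 and 2.05 on hCAR/hPXR arrays, and -5.12 on average in C3H controls. Its difference from CD-1 was 3.55, or 2.85 without CD-1 animal 1, and a second probe differed by -0.78. Nnt, a mitochondrial gene deleted in part in C57BL/6J mice, has no value here, because no probe was matched to its symbol.

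Acute phase genes, which hepatocytes raise under inflammation, were higher in 24 of 28 with 0 lower, median 2.12, whereas cyclic loess called 10 higher and 6 lower (median 0.45). Under all 3 scalings 10 were higher. Saa1, serum amyloid A, read 4.24, 5.51, 5.54 and 4.00 on CD-1 arrays and 6.66, 8.25 and 10.41 (lowest, median, highest) on hCAR/hPXR arrays, a difference of 3.39 (adjusted p = 3.63e-04) that cyclic loess did not call. Saa2 read 3.02, 4.80, 4.33 and 2.82 against 6.88, 8.46 and 9.61, a difference of 4.46. Neither overlapped. Lcn2, an iron-trapping protein of inflammation, read 1.43, 1.29, 2.57 and 1.11 against 2.82, 4.77 and 8.82, a difference of 3.29 that quantile scaling did not call (adjusted p = 0.0612); it was 2.63 without hCAR/hPXR animal 1. Animal 1 of the hCAR/hPXR controls had the highest Lcn2, at 8.82 against 2.82 to 5.26 in the other 6. It also had the highest Orm2, an acid glycoprotein, at 9.54 against 7.19 to 7.85, and the highest Lbp, the lipopolysaccharide-binding protein, at 5.09 against 3.53 to 4.14. Orm2 nonetheless was higher than on all CD-1 arrays, which read 5.08, 4.52, 5.0 and 4.40. Mt2, a metallothionein, read 4.46, 3.1, 5.73 and 2.34 against 7.42, 9.33 and 9.79, a difference of 4.93 (5.54 without CD-1 animal 3), and Mt1 was higher by 3.69. Hp, haptoglobin, read 10.27, 9.68, 10.06 and 9.16 against 9.78, 9.94 and 10.31. It overlapped and was not called, 0.18 ± 0.20 (adjusted p = 0.382), while quantile scaling gave 0.79 and cyclic loess -1.38.

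**Figure D4:**
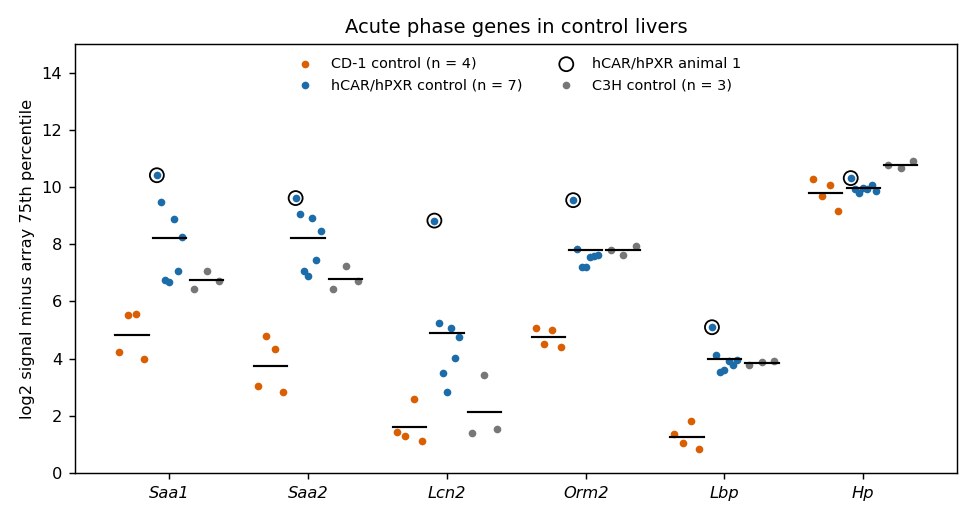
Levels of 6 acute phase genes on each control array, as log2 signal minus the array's 75th percentile; dots are arrays of CD-1 (n = 4), hCAR/hPXR (n = 7) and C3H (n = 3) mice, bars are group means, and the circled dot is animal 1 of the hCAR/hPXR controls. That animal lies highest of its group for Lcn2 (8.82), Orm2 (9.54) and Lbp (5.09), and Hp overlaps between strains.

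Hepatocyte markers were well above background on all arrays of every strain, in 10 of 10 genes. Alb, albumin, was higher by 1.44, and cyclic loess turned this to -0.15. The log2 summed level of the 10 markers was 12.03 to 12.74 on CD-1 arrays and 12.31 to 12.57 on hCAR/hPXR arrays, so these ranges overlapped. Summed levels also overlapped for Kupffer cell markers (7.66 to 8.46 and 7.36 to 7.77), neutrophil markers (7.41 to 8.57 and 7.08 to 7.86), endothelial markers (6.62 to 7.63 and 6.82 to 7.16) and red blood cell markers (7.69 to 8.59 and 7.85 to 8.68). Most of the Kupffer sum on CD-1 arrays came from Itgam, which averaged 7.91 there and 4.12 on hCAR/hPXR arrays. Of 13 tested Kupffer and macrophage markers, 12 were higher in hCAR/hPXR mice and 1, Itgam, lower. The sums did not overlap for lymphocyte markers, higher in CD-1 (6.02 to 7.37 and 5.32 to 5.89), or for stellate cell markers, lower in CD-1 (5.54 to 6.13 and 6.64 to 7.17). Bile duct markers overlapped at 2.62 to 2.90 and 1.77 to 2.70, and exocrine pancreas markers were higher in CD-1 without overlap, at 3.30 to 3.65 and 2.39 to 2.97. The part of these markers in the results above was not tested. In whole liver, fewer cells of a type and less RNA per cell cannot be told apart.

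Single markers of other cells moved in both directions. Timd4, a marker of resident Kupffer cells, was below background on all CD-1 arrays and at least 5.61-fold higher in hCAR/hPXR mice. Itgam, an integrin of infiltrating myeloid cells, read 8.28, 7.37, 8.12 and 7.88 on CD-1 arrays, 3.92, 4.11 and 4.36 on hCAR/hPXR arrays, and 2.50 on average in C3H controls. It was lower by 3.79 without overlap. Cd8a, of cytotoxic T cells, was at least 6.66-fold lower (2.52-fold under quantile scaling) and was below background on all hCAR/hPXR and C3H controls. Ngp and Elane, granule proteins of neutrophil precursors, were lower by 4.44 and 3.54, Ngp with 2 of 7 hCAR/hPXR arrays above background. Cdh5, the cadherin of endothelial cells, was higher by 4.02 with 2 of 4 CD-1 arrays above background, and Lrat, which stores vitamin A in stellate cells, was at least 4.17-fold higher. Of 14 tested lymphocyte markers 3 were higher and 6 lower (median -0.17), of 7 neutrophil markers 3 and 3 (median 0.07), and of 5 markers of exocrine pancreas 0 and 4 (median -1.85). Kupffer cell and macrophage markers were higher in 12 of 13 and lower in 1 (median 2.11), endothelial markers in 11 and 3 of 16 (median 1.02), and stellate cell markers in 8 and 4 of 14 (median 0.62). For bile duct cells these were 4 and 4 of 9 (median -0.41), for red blood cells 2 and 1 of 7 (median 0.31), and for hepatocytes 8 and 2 of 10 (median 1.54). Quantile and cyclic loess scaling turned the medians of neutrophil markers to -1.04 and -1.72 and of red blood cell markers to -1.06 and -1.31. By cyclic loess the medians of stellate and hepatocyte markers were -0.26 and -0.14, that of bile duct markers 0.22, and quantile scaling gave 0.11 for lymphocyte and 0.40 for bile duct markers. The bile duct marker Epcam was lower by 3.32 with 1 of 7 hCAR/hPXR arrays above background, and Prss2, a trypsinogen of exocrine pancreas, was at least 5.65-fold lower (1.87-fold under quantile scaling).

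Several of the lowest genes encode RNAs that work without being translated. Rmrp, the RNA of the RNase MRP enzyme, read 6.77, 6.0, 6.40 and 6.15 on CD-1 arrays and 0.06, 0.88 and 1.11 on hCAR/hPXR arrays, with 1.64 on average in C3H controls. Its difference was -5.55, the largest downward one by the rule for named genes. Rpph1, the RNA of RNase P, read 5.72, 4.63, 4.97 and 4.75 against -0.70, -0.28 and -0.01, a difference of -5.31. Rnu2-10, of the splicing RNA U2, was lower by 4.45 and Rprl2, related to RNase P RNA, by 5.25.

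Receptors for smell, taste and pheromones, which belong to sensory neurons, were looked at after their values were seen and get no test. Of the 1360 such genes on the array, 24.4% to 53.5% were well above background on CD-1 arrays, 10.2% to 22.8% on hCAR/hPXR arrays and 7.21% to 11.3% on C3H arrays. Vmn2r11 and Olfr974 were at least 23.5-fold and 23.3-fold lower in hCAR/hPXR mice, and Olfr1535 at least 97.3-fold higher. Other genes with large bounds were Dppa4, a gene of pluripotent cells, at least 44.3-fold lower, and Pou3f2, a neural transcription factor, at least 21.8-fold lower. Il1r1, the interleukin-1 receptor, was at least 46.9-fold higher and Pctp, a phosphatidylcholine transfer protein, at least 45.6-fold higher. The remaining bounds were at least 45.6-fold for Atrn, 42.5-fold for Cpne1 and 38.0-fold for Maco1 upward, the former 2 with a second probe of opposite sign (-1.06 and -1.68), and at least 22.9-fold for Arhgap33os and 22.0-fold for Rhcg, an ammonia channel, downward.

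Among genes above background on all arrays, Pttg1, which holds sister chromatids together, read -0.76, -1.86, -1.03 and -0.93 on CD-1 arrays and 5.06, 5.43 and 5.52 on hCAR/hPXR arrays. C3H controls averaged 1.99, and a second probe differed by 0.24 and was not called. Dio1, which activates thyroid hormone, read -0.27, -1.0, 0.35 and -0.55 against 4.73, 4.99 and 5.17, and its other probes gave 2.34 and 3.01 beside its difference of 5.35. Cers2, a ceramide synthase, was higher by 5.30 and Plk3, a stress-responsive kinase, by 5.38. Suv39h1, which writes a silencing histone mark, read 4.12, 3.75, 3.92 and 3.90 against -1.21, -1.09 and -0.84, a difference of -4.99. Oxnad1, Ap3m1 and Blcap were higher by 4.86, 4.84 and 4.83. Zfp423, Abr and Spats2l were lower by 5.05, 4.97 and 4.87, and Ffar2, a short-chain fatty acid receptor, B3gnt3, Sun5 and Proser3 by 4.73, 4.49, 4.46 and 4.37. Without hCAR/hPXR animal 4 the difference of Proser3 was -3.68. Where a gene had several tested probes, they often disagreed: of 3090 such genes with a call, 866 had probes called in opposite directions.

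Growth, stress and clock genes were higher in part. Ccnd1, cyclin D1, was well above background on 1 of 4 CD-1 arrays and higher by 4.53. Of 18 G1 genes 11 were higher and 4 lower, median 0.97, with 11 and 2 under all 3 scalings. Of 20 replication genes 14 were higher and 4 lower, median 1.98, with 13 and 0 under all 3 scalings. Among all tested genes with a symbol 63.9% were higher and 25.3% lower, with a median of 1.30. Pcna, the sliding clamp, was higher by 3.14 and Mcm4, a helicase subunit, by 3.88 (2 of 4 CD-1 arrays above background). Mki67, the proliferation marker, overlapped at -0.91 (adjusted p = 0.0254), and the mean over its probes gave 0.48. Quantile scaling (-0.48, adjusted p = 0.275) and cyclic loess (-0.68, adjusted p = 0.11) did not call Mki67. Its call was also lost without CD-1 animal 2 (-0.82), 3 (-0.83) or 4 (-0.76). Gadd45b, a CAR-responsive growth arrest gene, was lower by 0.75, and median centring turned this to 0.90. Of 13 p53 targets 12 were higher, 0 lower, median 2.72, with Btg2, an antiproliferative gene, at least 21.4-fold higher and Ccng1, cyclin G1, higher by 4.54 with 1 of 4 CD-1 arrays above background. Immediate-early genes were higher in 12 of 17 and lower in 1, median 1.99. Egr1 was higher by 5.33 and Zfp36, which destabilises cytokine messages, by 5.38 (5.99 without CD-1 animal 4), with 2 and 1 of 4 CD-1 arrays above background. Among 16 fetal and tumour-linked genes 9 were higher and 4 lower, median 1.30, and Afp, the fetal serum protein, was at least 2.86-fold higher, while normexp background correction did not call it. Herpud1, of the unfolded protein response, was higher by 4.75, and 16 of 19 genes of that list were higher, 1 lower, median 2.79. Among 16 clock genes 12 were higher and 1 lower, median 2.30; Clock was higher by 2.73, and Bhlhe41, a repressor in the clock, was at least 16.9-fold lower. The labels do not give the hour at which livers were taken. Under all 3 scalings 11 p53 targets were higher and 0 lower, 7 and 0 immediate-early genes, and 8 and 3 fetal and tumour-linked genes. For the unfolded protein response these were 11 and 1 and for the clock 10 and 1, beside 45.4% and 18.7% of all genes with a symbol.

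Genes often used as references also differed. Of 16 tested, 15 were higher and 1 lower, with a median of 1.69 under the 75th percentile and -0.02 under cyclic loess. Gusb was higher by 3.21 and Ywhaz lower by 2.40. Secreted plasma proteins, the brightest liver transcripts, were higher in 25 of 39 and lower in 10, median 0.96, but by cyclic loess 7 were higher and 23 lower, median -0.78, where 49.4% and 31.7% of genes with a symbol were called in each direction. The order of lists under 1 scaling is therefore not the order under another, as the plot of list medians shows.

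**Figure D5:**
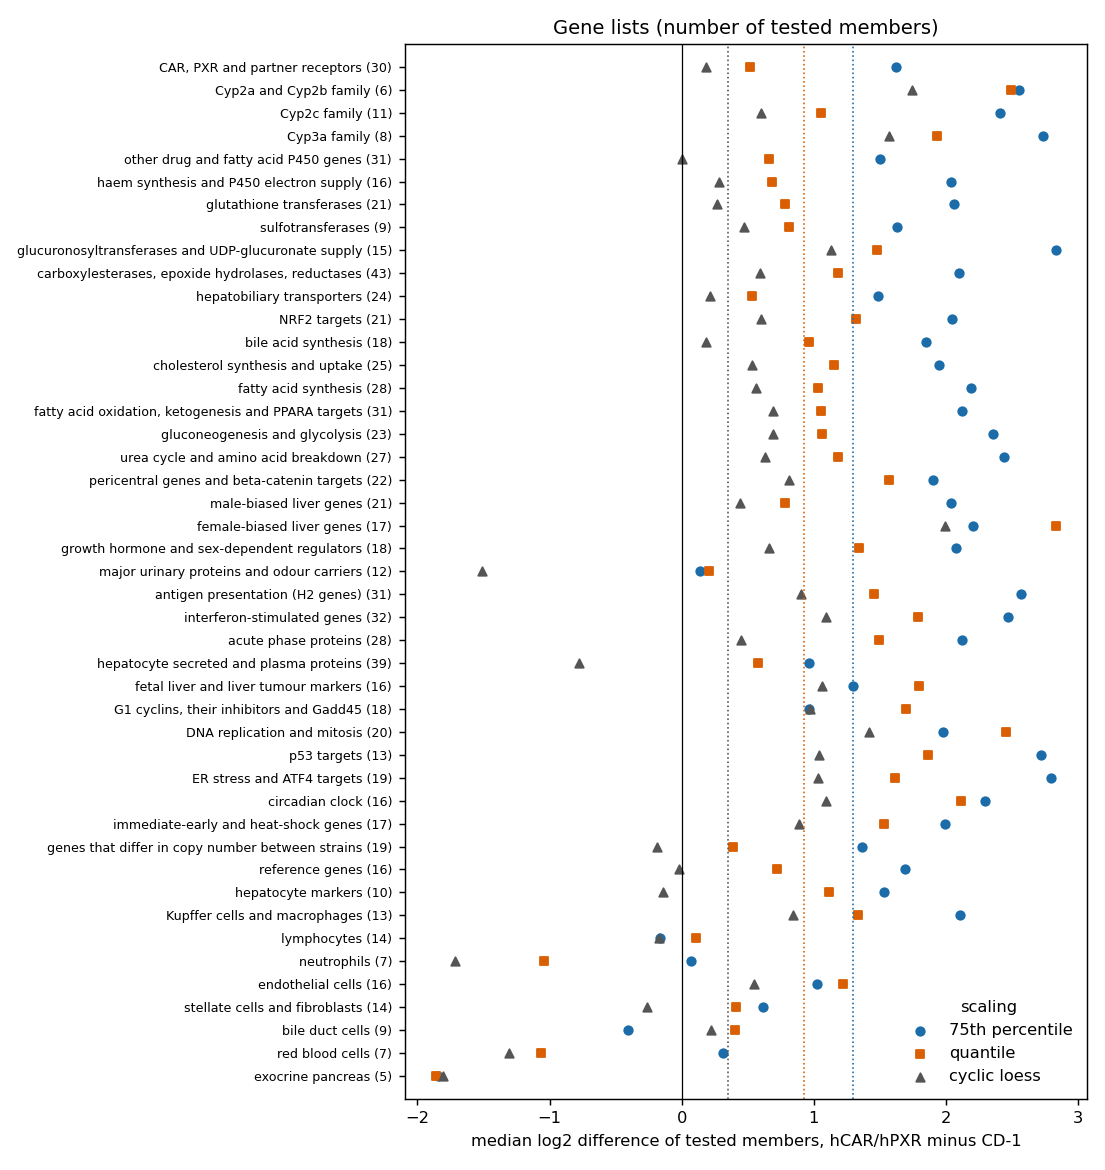
Median difference of the tested genes of each list, hCAR/hPXR minus CD-1 in log2 units, under 3 scalings (marker colours); dotted lines are the medians of all tested genes with a symbol, 1.30, 0.93 and 0.35. The lists of fatty acid, glucose, cholesterol and urea cycle genes lie right of the line of each scaling. Pancreas markers lie left of 0 under all 3 scalings, and lymphocyte and bile duct markers do so under the 75th percentile but not under quantile scaling.

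The same strains fed phenobarbital lay on other slides, apart from 1 hCAR/hPXR array, and share no animal with the comparison above, but their diets differed (1500 ppm in CD-1, 1000 ppm in hCAR/hPXR), so their values stand beside it without a test between the diets. There 20348 genes were called (89.8%). Nr1i3 differed by -3.04 and Nr1i2 by -5.02 between those arrays, beside -2.50 and -5.44 in controls. Oat differed by 8.53, Cyp3a57 by 4.79, Cyp2c55 by 3.58 and Rmrp by -4.46, beside 6.66, 4.41, 6.28 and -5.55 in controls. Cyp2b10 differed by 1.84, beside 4.01, and Mup6 by 1.99, beside 5.09.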

How the data were processed

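Liver RNA of 28 male mice in 6 groups was read on 1-colour Agilent arrays, 1 animal per array, and 11 arrays entered the comparison. Per the file headers, the authors' scanner files hold intensity values from Agilent Feature Extraction 10.7.3.1, background-subtracted within each array and not normalized between arrays. The value table deposited by the authors holds log2 values and was used as an alternative only. Total counts do not exist for arrays, so the number of arrays limits the precision.

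Outlier-flagged spots were left out, and replicate spots were averaged. Each array was scaled by its 75th percentile over 55681 non-control probes. Accessions in the array files, matched without versions to RefSeq names of GRCm38.p6, gave a symbol to 26582 probes (20145 symbols), and 29099 probes have none. For each of 37208 genes, or transcripts without a symbol, the brightest probe over 28 arrays was used. Tests across genes used the lmFit and eBayes functions of limma 3.58.1 under R 4.3.3 (two-sided, 9 residual degrees of freedom, Benjamini-Hochberg adjustment, threshold 0.05). Single measures of arrays were tested by exact permutation. For a lower bound, the dim group's values were raised, array by array, to the lowest value marked well above background. On simulated data with 7 and 4 arrays and 22479 genes, 93 of 100 genes with a log2 change of 2 and 56 of 100 with a change of 1 were called, with 3 false calls among 22279. The simulated arrays had independent noise and no difference of slide or brightness between groups. These counts therefore do not give the rate of false calls in the real comparison.

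The genes named are 20 genes of interest, the 12 largest differences each way above background on all 11 arrays, the 6 largest lower bounds each way, and up to 4 called genes per list with the smallest adjusted p. All but the first had to be called alike after quantile normalization. Others named were chosen after their values were seen. On the array were 887 of the 941 genes of the 45 lists. The members and lists were chosen with earlier results of these data known. A few items are not reported here. Same-numbered animals did not deviate together (correlations 0.019 to 0.063), so no pairing was used. The labels call the animals biological replicates. The build used for the array design is not given in the sources used here.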

Additional observations from a re-analysis of the deposited data

Results flagged for a closer look

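For the genes named, each strain's control arrays were examined for 1 animal far from the rest, where the gap to its nearest neighbour is large against the whole range. Of 322 such groups 29 had one, 6 in CD-1 and 23 in hCAR/hPXR mice. Chance gives about 1 in 20 for a gene named in advance. Some of these genes were named after their values were seen, and genes of the same animal are not independent. The count therefore cannot be judged against that rate. All values are levels in log2 units, and no cause was tested.

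In hCAR/hPXR mice animal 1 stood apart most often. It was high for Lcn2, at 8.82 against 2.82 to 5.26 in the other 6, Orm2 (9.54 against 7.19 to 7.85), Lbp (5.09 against 3.53 to 4.14), Irf1 (4.23 against 3.66 to 3.83) and Prom1 (-0.38 against -2.07 to -1.65). It was low for Cyp2c55 (1.39 against 2.50 to 2.87), Cyp1a2 (2.71 against 3.54 to 4.04), Slco1a1 (2.03 against 3.53 to 4.10), Cyp4v3 (5.52 against 6.08 to 6.47), Stat5b (3.47 against 3.83 to 4.05) and H2-Eb1 (3.60 against 4.2 to 4.49). Among the genes flagged on this array, 3 acute phase genes were thus high and 3 P450 genes low. Not all P450 genes were low on it: a Cyp3a13 probe read 4.34, against 3.28 to 3.93 in the other 6.

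Animal 6 was high for Cyp4a14 (6.77 against 5.09 to 5.75) and low for Btg2 (0.21 against 1.52 to 2.14), Rmrp (0.056 against 0.67 to 1.11) and Insig1 (0.65 against 2.07 to 2.88), and high for Pklr (0.84 against -0.23 to 0.20). Animal 4 was low for Plin2 (5.96 against 6.41 to 6.75), Mcm4 (1.05 against 1.49 to 1.72), Zfp423 (-2.95 against -2.13 to -1.73) and Proser3 (0.47 against 5.14 to 5.45). Animal 3 was low for Rprl2 (-3.08 against -0.29 to 0.25), Sun5 (-1.64 against -0.60 to -0.01) and Grb10 (-5.48 against -3.30 to -2.19).

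Among CD-1 mice, animal 1 was low for Mki67 (-1.27 against -0.10 to 0.11) and Trim12a (-3.81 against -1.21 to -0.80) and high for Cpne1 (-2.68 against -4.60 to -4.31). Animal 2 was low for Cyp4a14 (-3.73 against 3.53 to 4.35) and Cldn2 (-0.98 against -0.56 to -0.51), and animal 3 was high for Herpud1 (3.96 against 1.83 to 2.13).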

How the results depend on the processing

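The count of genes called was 20041, and it stayed within 1.5 times of that under quantile, cyclic loess, median and normexp settings, the authors' value table (20022), the mean over probes, a fit of all 28 arrays, array weights and robust variance. The filter moved it: 13011 genes were called when all 11 arrays had to be above background (10584 at least 2-fold), 11796 (8422) with quantile scaling added, and 32354 (28993) without a filter, where fewer or more genes are tested by construction. Normexp with quantile scaling left 10083 changes of at least 2-fold against 17120, and the cause was not tested. Leaving out each array in turn gave 19758 to 20170 calls and 16895 to 17187 of at least 2-fold, and 18552 to 19088 calls under quantile scaling. With the replicate number as a block 19210 genes were called (17051 at least 2-fold). Same-numbered animals correlated at 0.019 to 0.063, and Cyp1a2 lost its call under the block (0.57).

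For 156 named genes, 4023 of 4100 alternatives kept the direction and the side of the threshold, 33 lost a call, 10 gained one and 34 turned direction. Of the 1716 that left out an array, 1707 kept both. The reversals, whose causes were not tested, were these. Rxra gave 0.051 by quantile scaling, with or without the stricter filter, 1.63 by median centring, 0.0031 with array weights, 0.070 without CD-1 animal 1, 0.016 without CD-1 animal 3 (-0.12 to 0.070 over all arrays left out), and 1.47 on phenobarbital-fed arrays (2.28 by quantile). Slco1a1 gave -1.13 by quantile scaling with either filter, -1.44 by cyclic loess, -0.99 by normexp with quantile scaling, and -1.03 on phenobarbital-fed arrays (-2.04 by quantile). Cyp1a2 gave -0.74 by quantile scaling with either filter, -1.06 by cyclic loess, -0.76 by normexp with quantile scaling, and -0.041 on phenobarbital-fed arrays by quantile. Cyclic loess turned Cyp3a11 (-0.64), Alb (-0.15) and Hp (-1.38), and Hp turned without CD-1 animal 4 (-0.027 to 0.34 over all arrays left out). Median centring turned Gadd45b (0.90), Mki67 (0.74) and Mup18 (0.043). The mean over probes turned Mki67 (0.48) and Prom1 (-0.82), and normexp turned Sult1e1 (-0.37). On phenobarbital-fed arrays Gadd45b gave 0.24 and Mki67 1.09 (0.67 by quantile), and by quantile Cyp2c39 gave -0.30 and Spats2l 0.64.

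Limits: strain, slide and array brightness move together, so none of the differences can be assigned to the receptors, to the rest of the genome or to the hybridisation. A gene with several probes was read by 1 of them. Replicate spots varied more on CD-1 arrays.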
